A study of Mus musculus with 8 samples.

Results

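Type 1 conventional dendritic cells (cDC1) are the dendritic cells that cross-present antigen from dead cells to CD8+ T cells, and 10 genes that mark them or are needed for their development and function were examined here in tumor-associated macrophage (TAM) libraries. The genes were matched by name, and all 10 were found among the 26939 genes of the series and were tested in every comparison. They were the receptor genes *Xcr1* and *Clec9a*, the transcription regulators *Batf3*, *Irf8*, *Zbtb46* and *Id2*, the adhesion genes *Itgae* and *Cadm1*, and *Wdfy4* and *Naaa*.

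Bulk RNA-sequencing (RNA-seq) was performed on TAMs from EO771 tumors, a mouse breast cancer line grown in the mammary fat pad of young adult female C57BL/6J mice, at day 21. The sort gate took living leukocytes (CD45+) that carried CD11b and F4/80 and lacked Gr-1. WT and *Unc93b1* 3d/3d mice each gave 2 control libraries and 2 αMARCO libraries, which made 4 groups. Mice that are *Unc93b1* 3d/3d carry a missense mutation in every cell that leaves TLR3, TLR7 and TLR9 without function, and αMARCO is a rat IgG1 antibody (clone ED31) to the scavenger receptor MARCO, given at 100 µg on days 3, 6, 9 and 12. The control injection is not settled, since the labels say untreated, the library names say PBS and the treatment protocol names an isotype antibody. 1 label of the *Unc93b1* 3d/3d control group writes the allele as 3d/4d in its genotype field, and that library was kept in its titled group. A figure legend of the paper describes the control samples as pooled from several mice, so a control library is not 1 animal. The paper does not state this for the αMARCO libraries.

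In the cDC1 lineage, IRF8 and BATF3 form a complex at composite DNA sites and maintain the cDC1 program, ID2 restrains E proteins that would favor plasmacytoid dendritic cells (pDC), and ZBTB46 marks conventional dendritic cells in general. The surface of these cells carries XCR1, the receptor for the chemokine XCL1 made by NK and CD8+ T cells, and CLEC9A, which binds actin exposed on dead cells. Conventional cDC1 carry little CD11b, so the sort was not aimed at them, and several of the genes, such as *Irf8* and *Id2*, are also used by macrophages. In bulk libraries, fewer cells of a type and less RNA per cell cannot be told apart.

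Library totals ran from 15182618 to 26411936 counts. A floor of 3 counts corresponds to 0.116 to 0.204 CPM, the counts scaled to the library total with TMM factors, and every member was above it in every library. The *Unc93b1* 3d/3d αMARCO replicate 2 library stood apart. Its median absolute log2 difference to the other library of its group was 0.54, while the other 3 groups had 0.15 to 0.20 between their libraries. Log2 fold changes printed for genes in comparisons that use the *Unc93b1* 3d/3d αMARCO group are therefore followed by their values without it. *Unc93b1* itself was at 848 and 965 CPM in WT control and at 539 and 660 CPM in *Unc93b1* 3d/3d control. This difference was a log2 fold change of 0.58 ± 0.12 (SE; edgeR quasi-likelihood test, adjusted p = 0.0125), and a missense allele is not checked by a transcript level.

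The TAM identity of the libraries was visible in the macrophage genes *Csf1r*, at 904 to 1131 CPM, *Adgre1*, which encodes F4/80, at 331 to 720 CPM, and *C1qa*, at 1392 to 2788 CPM. To set the 10 genes in order, levels were divided by gene length. *Id2* had the highest mean level over the 8 libraries at 119 CPM per kb, followed by *Naaa*, a lysosomal amidase, at 89.1 CPM per kb, and *Irf8* at 35.8 CPM per kb. *Batf3* at 20.6 CPM per kb and *Wdfy4* at 20.1 CPM per kb had no fixed order, since *Batf3* was above *Wdfy4* in 4 of 8 libraries. *Cadm1* was at 8.50 CPM per kb. The 4 lowest were *Xcr1* at 1.41, *Zbtb46* at 0.985, *Itgae* at 0.982 and *Clec9a* at 0.424 CPM per kb, and *Zbtb46* was above *Itgae* in 1 of 8 libraries. *Clec9a* was the lowest of the 10. The receptor genes *Xcr1* and *Clec9a* were at 0.658% and 0.198% of the *Csf1r* level per length, while *Id2* exceeded 97.4% of tested genes.

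**Figure D1:**
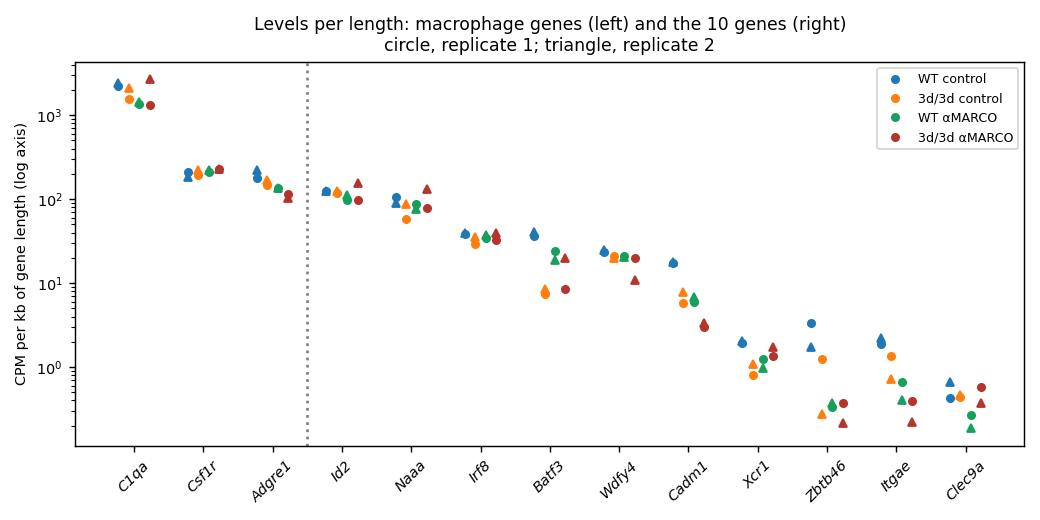
Levels of 3 macrophage genes (left of the dotted line) and of the 10 cDC1 genes (right), in CPM per kb of gene length on a log axis. Colors mark the 4 groups and symbols the replicates. The 10 genes span from *Id2*, with a mean of 119 CPM per kb, to *Clec9a*, with 0.424 CPM per kb.

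*Zbtb46* was the member whose promoter held letters of the sites that BATF3 and IRF8 bind. RefSeq promoters (GRCm38.p6, 250 bases before to 50 bases after the start) were found for 8 of the 10 members, and none for *Cadm1* and *Itgae*. They were searched on both strands for the AP-1 letters TGANTCA and for the AP-1-IRF composite, which is GAAA joined directly to TGANTCA, or TTTC, 4 further bases and TGANTCA. The IRF repeat (GAAA, 2 further bases, GAAA) and the ETS-IRF composite (GGAA, 2 further bases, GAAA) were searched as well. Of 27025 genes with promoters, 8.97% held the AP-1 letters, 0.274% the AP-1-IRF composite, 3.99% the IRF repeat and 3.16% the ETS-IRF composite. The bases printed below, with the *Zbtb46* match in capitals, are chr2:181424430-181424457 on the minus strand that *Zbtb46* is read from. The match starts 61 bases before the RefSeq start. That start is an internal one, since it lies within the *Zbtb46* gene as the deposited positions give it, away from the 5′ end at 181459426. It is shown because no other member's promoter held a match, and the capitals mark the composite letters on the opposite strand, which include the AP-1 letters.
Zbtb46: atttacctTGACTCATTTCacagcaaat
No binding was measured, and the match is a description of these letters.

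First, WT control and *Unc93b1* 3d/3d control TAMs were compared, to ask how loss of endosomal TLR function related to these genes in the absence of αMARCO. *Batf3*, *Cadm1* and *Xcr1* were higher in WT, by 4.76-fold, 2.57-fold and 2.08-fold. The other 7 genes did not pass the test. Thus 3 of 10 members were called higher and 0 lower, where 6.58% of the 15600 tested genes were called higher and 6.4% lower. A call needed a log2 fold change of 0.5 or more in size together with an adjusted p no larger than 0.05. The libraries of the groups did not overlap for 8 of 10 members, all higher in WT, where 33.2% of tested genes did not overlap in that direction. The median log2 fold change was 0.69 for the members and -0.00 for all tested genes.

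*Batf3* (ENSMUSG00000026630, chromosome 1, 191097847 to 191108945), the AP-1 factor that cDC1 require, was at 57.7 and 65.1 CPM in WT control and at 11.9 and 13.6 CPM in *Unc93b1* 3d/3d control. The log2 fold change was 2.25 ± 0.13 (SE, n = 2 libraries per group; edgeR quasi-likelihood, adjusted p = 1.14e-05). *Irf8* (ENSMUSG00000041515, chromosome 8, 120736358 to 120756694), its partner, was at 268 and 282 CPM in WT control and at 209 and 253 CPM in *Unc93b1* 3d/3d control. Its groups did not overlap, but the log2 fold change of 0.24 ± 0.11 did not pass the test (edgeR adjusted p = 0.163).

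*Zbtb46* (ENSMUSG00000027583, chromosome 2, 181387762 to 181459426) varied within both groups, at 28.5 and 14.7 CPM in WT control and at 10.5 and 2.33 CPM in *Unc93b1* 3d/3d control. Its log2 fold change was 1.76 ± 0.93 with a 95% interval from -1.32 to 4.84 (edgeR adjusted p = 0.322). It was called when *Unc93b1* 3d/3d control replicate 1 was left out, at 3.19 (adjusted p = 0.0427). *Id2* (ENSMUSG00000020644, chromosome 12, 25093799 to 25097140) was at 303.0 and 302.6 CPM in WT control and at 289.8 and 304.5 CPM in *Unc93b1* 3d/3d control. The groups overlapped, and the 95% interval of the log2 fold change ran from -0.19 to 0.22.

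*Xcr1* (ENSMUSG00000060509, chromosome 9, 123852315 to 123862029) was at 8.68 and 9.20 CPM in WT control and at 3.58 and 4.87 CPM in *Unc93b1* 3d/3d control. The log2 fold change was 1.06 ± 0.25 (edgeR adjusted p = 0.0186). This call was lost without WT control replicate 1 (adjusted p = 0.0536), WT control replicate 2 (0.0659) or *Unc93b1* 3d/3d control replicate 1 (0.0978), and with all 8 libraries in 1 model (0.105). *Clec9a* (ENSMUSG00000046080, chromosome 6, 129408862 to 129424763) was at 1.42 and 2.16 CPM in WT control and at 1.44 and 1.52 CPM in *Unc93b1* 3d/3d control. These levels rest on 23 to 39 counts per library, and the groups overlapped. The 95% interval of the log2 fold change ran from -0.70 to 1.21, so differences within it were not excluded.

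*Cadm1* (ENSMUSG00000032076, chromosome 9, 47530173 to 47857637), an adhesion molecule that binds CRTAM on activated T cells, was at 181 and 188 CPM in WT control and at 60.5 and 81.6 CPM in *Unc93b1* 3d/3d control. The log2 fold change was 1.36 ± 0.13 (edgeR adjusted p = 0.000477), and the call remained under every alternative run. *Itgae* (ENSMUSG00000005947, chromosome 11, 73090583 to 73147446), which encodes the integrin CD103, was at 8.58 and 10.1 CPM in WT control and at 6.28 and 3.35 CPM in *Unc93b1* 3d/3d control. It missed the threshold at 0.95 ± 0.31 (edgeR adjusted p = 0.059) and was called without *Unc93b1* 3d/3d control replicate 1 (adjusted p = 0.0213) and with no filter beyond 1 count (adjusted p = 0.00284). CD103 is also carried by resident T cells, and the T cell markers moved with it, as given further on.

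*Wdfy4* (ENSMUSG00000051506, chromosome 14, 32959547 to 33185508), which cDC1 need for cross-presentation, was at 251 and 259 CPM in WT control and at 221 and 208 CPM in *Unc93b1* 3d/3d control. *Naaa* (ENSMUSG00000029413, chromosome 5, 92257659 to 92278170) was at 395 and 334 CPM in WT control and at 214 and 322 CPM in *Unc93b1* 3d/3d control. Neither pair of groups overlapped, and neither gene passed the test, with log2 fold changes of 0.23 ± 0.09 for *Wdfy4* (edgeR adjusted p = 0.117) and 0.43 ± 0.19 for *Naaa* (adjusted p = 0.176). *Naaa* was called without *Unc93b1* 3d/3d control replicate 2, at 0.74 (adjusted p = 0.0114).

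**Figure D2:**
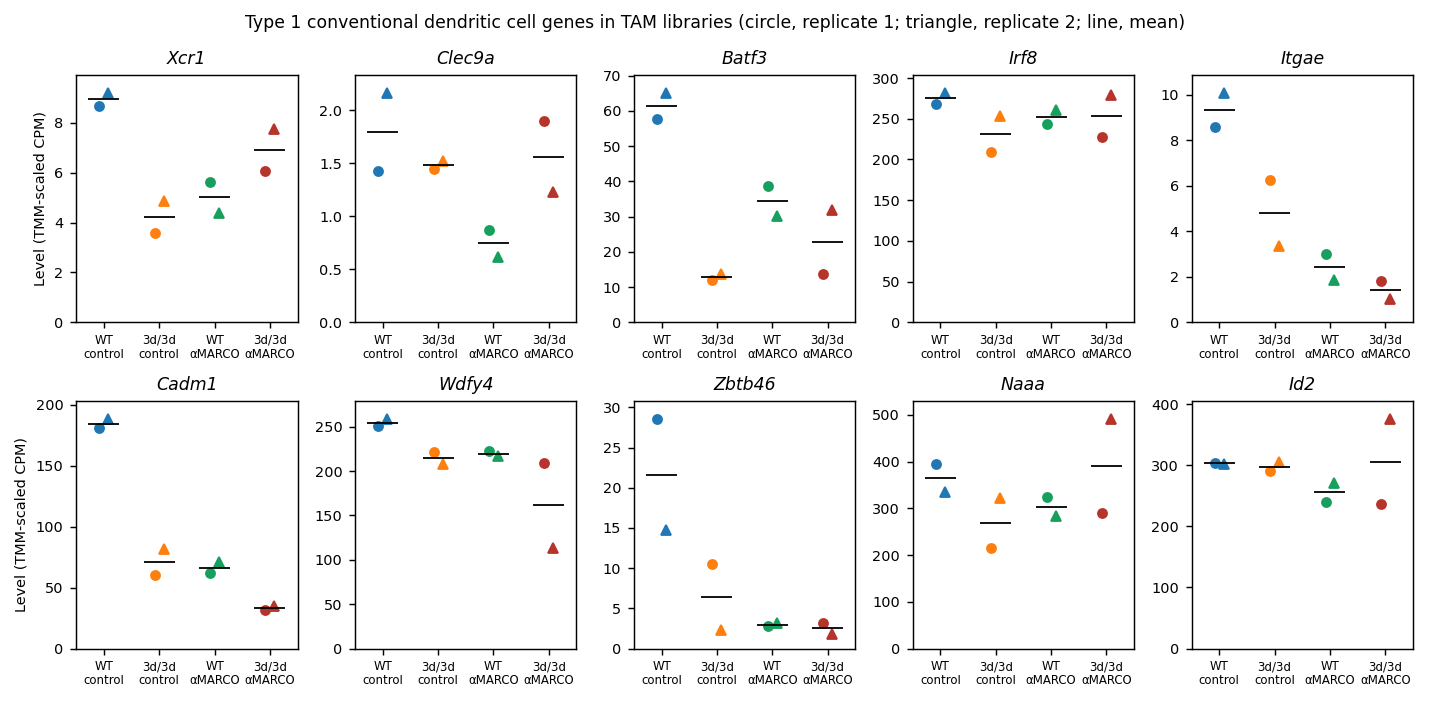
Level of each of the 10 genes in each library, in TMM-scaled CPM on a linear axis from 0. Circles are replicate 1, triangles replicate 2 and lines the mean of the 2. *Batf3* and *Cadm1* are highest in WT control, and *Itgae* and *Zbtb46* are low in all 4 αMARCO libraries, at no more than 3.01 and 3.16 CPM. *Zbtb46* is also low in *Unc93b1* 3d/3d control replicate 2, at 2.33 CPM.

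Second, WT αMARCO TAMs were compared with WT control TAMs, to ask how the antibody related to these genes in mice with working endosomal TLRs. *Zbtb46*, *Itgae*, *Cadm1*, *Xcr1* and *Batf3* were lower after αMARCO, by 7.16-fold, 3.85-fold, 2.76-fold, 1.78-fold and 1.77-fold. In all, 5 of 10 members were called lower and 0 higher, where 11.8% of the 15630 tested genes were called lower and 8.91% higher. The libraries did not overlap for 10 of 10 members, all lower after αMARCO, where 36.8% of tested genes did so. The median log2 fold change was -0.83 for the members and -0.01 for all tested genes. The WT control libraries are also used in the genotype comparison, so the 2 comparisons are not independent.

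Among the regulators, *Batf3* was at 38.8 and 30.3 CPM in WT αMARCO, below the 57.7 CPM of the lower WT control library. The log2 fold change was -0.83 ± 0.13 (SE; edgeR adjusted p = 0.00148). *Zbtb46* was at 2.81 and 3.16 CPM, against 28.5 and 14.7 CPM in WT control, a log2 fold change of -2.84 ± 0.34 (edgeR adjusted p = 0.00161). This was the largest of the 5 called changes. *Irf8*, at 244 and 261 CPM, and *Id2*, at 240.0 and 271.7 CPM, lay just under WT control, with log2 fold changes of -0.12 ± 0.08 (edgeR adjusted p = 0.291) and -0.24 ± 0.09 (adjusted p = 0.0589).

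*Xcr1* was at 5.63 and 4.40 CPM in WT αMARCO, a log2 fold change of -0.83 ± 0.21 from WT control (edgeR adjusted p = 0.0127). The call was lost without WT αMARCO replicate 2 (adjusted p = 0.126). *Clec9a* was at 0.874 and 0.617 CPM, or 18 and 16 counts, and its log2 fold change of -1.26 ± 0.47 did not pass the test (edgeR adjusted p = 0.0595). It passed without WT control replicate 1 (adjusted p = 0.0326), with no filter beyond 1 count (0.0493) and with at least 10 counts in every library (0.0324). Both receptor genes were lower in both WT αMARCO libraries than in both WT control libraries.

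*Cadm1* was at 61.9 and 70.7 CPM, which overlapped the *Unc93b1* 3d/3d control libraries, and fell by 1.47 on the log2 scale (SE 0.09; edgeR adjusted p = 2.23e-05). *Itgae* was at 3.01 and 1.85 CPM and fell by 1.95 (SE 0.27; edgeR adjusted p = 0.000791). *Wdfy4* at 222 and 217 CPM and *Naaa* at 323 and 283 CPM were not called, with log2 fold changes of -0.20 ± 0.08 (adjusted p = 0.0638) and -0.26 ± 0.10 (adjusted p = 0.0821). With all 8 libraries in 1 model, which lets the spread of the *Unc93b1* 3d/3d αMARCO pair enter, *Cadm1* was the 1 member still called, and the adjusted p was 0.158 for *Xcr1*, 0.230 for *Batf3*, 0.0755 for *Itgae* and 0.0818 for *Zbtb46*. Calls over all tested genes also fell in that model, as given in the last section, so the loss was not particular to the members.

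**Figure D3:**
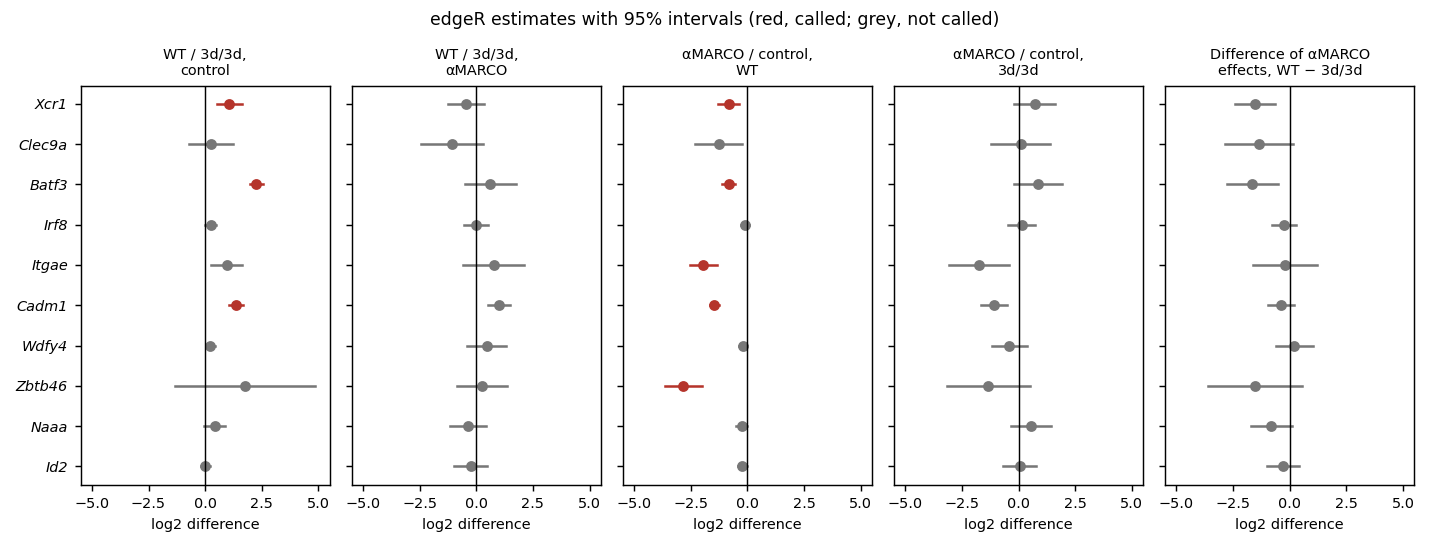
Log2 differences of the 10 genes in the 5 comparisons, with 95% intervals from edgeR. Red points were called and grey points were not. The called points are higher in WT control than *Unc93b1* 3d/3d control (3 genes) and lower in WT αMARCO than WT control (5 genes).

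Next, the same antibody effect was examined in *Unc93b1* 3d/3d mice. No member was called, and no gene of 15428 was called by edgeR (0.0%), while 744 genes (4.82%) had an unadjusted p of at most 0.05 and DESeq2 called 60. *Cadm1* and *Itgae* were lower in both αMARCO libraries than in both control libraries and *Xcr1* was higher, which made 3 of 10 members without overlap, where 38.9% of tested genes did not overlap. *Cadm1* was at 31.6 and 35.0 CPM after αMARCO, a log2 fold change of -1.09 (unadjusted p = 0.00409 and adjusted p = 0.823 in edgeR). *Itgae* was at 1.81 and 1.02 CPM, a log2 fold change of -1.74 (unadjusted p = 0.0184 and adjusted p = 0.823 in edgeR). *Xcr1* was at 6.05 and 7.75 CPM, against 3.58 and 4.87 CPM in control, a log2 fold change of 0.71 (edgeR adjusted p = 0.823).

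Several members were split by the *Unc93b1* 3d/3d αMARCO pair. *Batf3* was at 13.6 CPM in replicate 1 and at 31.9 CPM in replicate 2, *Wdfy4* at 209 and 114 CPM, *Naaa* at 291 and 491 CPM, and *Id2* at 235.8 and 375.3 CPM. *Irf8* was at 227 and 279 CPM, *Zbtb46* at 3.16 and 1.84 CPM and *Clec9a* at 1.90 and 1.22 CPM, and all of these overlapped the control libraries. Without replicate 2, *Cadm1* was called at -1.17 (edgeR adjusted p = 0.00727), *Itgae* was at -1.41 (adjusted p = 0.181) and *Xcr1* at 0.51 (adjusted p = 0.566), the *Batf3* log2 fold change was 0.09, and 2.11% of tested genes were called. Without replicate 1, 6 members were called, *Batf3* was at 1.34 (adjusted p = 8.67e-05), and 34.9% of tested genes were called. With 1 library left in a group, these fits take its spread from the other group.

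Finally for the pairs of groups, TAMs of WT αMARCO and *Unc93b1* 3d/3d αMARCO were compared. No member and no gene of 15722 was called by edgeR (0.0%), while 1076 genes (6.84%) had an unadjusted p of at most 0.05 and DESeq2 called 214, *Cadm1* among them (DESeq2 adjusted p = 0.026). The libraries did not overlap for 5 of 10 members, where 44.3% of tested genes did not overlap. *Cadm1*, *Itgae* and *Wdfy4* were higher in both WT αMARCO libraries, and *Xcr1* and *Clec9a* were lower. *Cadm1* had a log2 fold change of 0.997 ± 0.185 (unadjusted p = 0.00277 and adjusted p = 0.354 in edgeR), and the other 9 members had an adjusted p of at least 0.709. Without *Unc93b1* 3d/3d αMARCO replicate 2, *Batf3* was called at 1.34 (adjusted p = 6.5e-05) and *Cadm1* at 1.07 (adjusted p = 4.31e-06), where 7.76% of genes were called. Without replicate 1, 6 members were called, where 39.8% of genes were called.

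Whether αMARCO acted unequally in WT and *Unc93b1* 3d/3d TAMs was then tested directly with all 8 libraries. The effect in WT minus that in *Unc93b1* 3d/3d was negative for 9 of 10 members. Its median over the members was -0.59 on the log2 scale, against -0.04 for all tested genes. Among lists given further on, this median was -0.57 for other cDC1 genes, -1.68 for T cell markers and -2.27 for mature dendritic cell markers. It was -0.08 for macrophage markers and 0.94 for B cell markers. The negative shift was therefore not particular to the members. No member and no gene of 16620 was called by edgeR (0.0%), while 2549 genes (15.3%) had an unadjusted p of at most 0.05 and DESeq2 called 211. *Xcr1* differed by -1.54 ± 0.39 (unadjusted p = 0.00408 and adjusted p = 0.318 in edgeR) and *Batf3* by -1.66 ± 0.49 (unadjusted p = 0.00947 and adjusted p = 0.318). *Xcr1* was also the 1 member without overlap in both genotypes in opposite directions, with lower levels after αMARCO in WT TAMs and higher levels after it in *Unc93b1* 3d/3d TAMs, where 4.75% of tested genes showed these directions and 10.5% showed opposite directions either way. For *Cadm1* the difference was -0.38 with a 95% interval from -0.95 to 0.18, and for *Itgae* it was -0.21 with an interval from -1.62 to 1.20. Without *Unc93b1* 3d/3d αMARCO replicate 2, *Batf3* was called at -0.89 (adjusted p = 0.0418), *Xcr1* missed the threshold at -1.32 (adjusted p = 0.0712), *Cadm1* was at -0.28 (adjusted p = 0.516) and *Itgae* at -0.52 (adjusted p = 0.654), where 3.53% of genes were called. Without replicate 1, 5 members were called, where 38.6% of genes were called.

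Other genes of the cDC1 program were taken from a list of 24, of which 22 were in the files and 21 were tested. In control TAMs, 4 of 21 were higher in WT and 0 lower, with a median log2 fold change of 0.22, and these were *Btla*, *Cd8a*, *Ly75* and *Tbc1d8*. After αMARCO in WT, 9 of 21 were lower and 0 higher, with a median of -0.45. *Btla*, an inhibitory receptor, was at 8.21 and 5.60 CPM in WT control, at 3.39 and 1.32 CPM in *Unc93b1* 3d/3d control, and at 0.971 and 1.62 CPM in WT αMARCO. *Tlr3*, the endosomal receptor for double-stranded RNA that needs UNC93B1, was at 28.5 to 42.4 CPM over all 8 libraries and was not called in any comparison. *Cd24a* (log2 fold change -0.93) and *Ppt1* (-0.58) were lower after αMARCO in WT, while *Snx22* and *Gcsam* were at no more than 2.37 and 1.68 CPM and were not called.

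Ligands and binding partners were tested as 13 genes. *Xcl1*, the ligand of XCR1, was at 2.37 and 1.83 CPM in WT control, at 0.377 and 0.457 CPM in *Unc93b1* 3d/3d control, and at 0.194 and 0.424 CPM in WT αMARCO. It was called higher in WT control (log2 fold change 2.29, edgeR adjusted p = 0.0156) and lower after αMARCO in WT (-2.69, adjusted p = 0.00401). *Irf4*, which can also pair with BATF factors, was called with it in both comparisons, at 1.22 (adjusted p = 0.00427) and -0.89 (adjusted p = 0.00606), and the other 11 genes were called in neither. *Flt3*, the growth factor receptor of dendritic cells, was at 49.2 and 19.8 CPM in WT control, 8.79 and 3.20 CPM in *Unc93b1* 3d/3d control, and 2.47 and 4.63 CPM in WT αMARCO. It did not pass the test in either comparison (2.54, adjusted p = 0.167, and -3.25, adjusted p = 0.0647). *Itgb7*, the partner chain of CD103, was at 91.1 to 146 CPM, *Crtam*, the receptor of CADM1, at 0.340 to 1.42 CPM, and *Cdh1*, the CD103 ligand E-cadherin, at 7.33 to 61.6 CPM, and none was called.

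Regulators of dendritic cell fate gave 5 of 16 higher in WT control than in *Unc93b1* 3d/3d control and 0 lower, and 3 of 16 lower and 1 higher after αMARCO in WT. *Batf*, which can take over from BATF3, was at 40.8 and 37.8 CPM in WT control, 16.4 and 19.2 CPM in *Unc93b1* 3d/3d control, and 23.6 CPM in both WT αMARCO libraries. *Cbfa2t3* was called in the same 2 directions, at 0.91 (edgeR adjusted p = 0.0156) and -0.51 (adjusted p = 0.0258). *Klf4*, a cDC2 and monocyte factor, was called in control TAMs at 0.77 (adjusted p = 0.0011), and *Bcl6* rose by 0.64 (adjusted p = 0.000756) after αMARCO in WT. *Nfil3* and *Zeb2*, which act upstream of *Id2* in cDC1 progenitors, and *Tcf4*, the pDC regulator, were not called.

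Markers of other cells moved with several members. Of 16 T cell markers, 14 were higher and 1 (*Cd4*) lower in WT control than in *Unc93b1* 3d/3d control, and 15 were lower after αMARCO in WT. Their summed level was 260 to 270 CPM (range of the 2 libraries) in WT control, 170 to 203 CPM in *Unc93b1* 3d/3d control, 99.0 to 139 CPM in WT αMARCO and 95.6 to 105 CPM in *Unc93b1* 3d/3d αMARCO. *Cd3e* was at 4.58 and 8.81 CPM in WT control and at most 1.57 CPM in the other 6 libraries. *Cd8a*, which mouse cDC1 of lymphoid organs also carry, was at 15.7 and 20.3 CPM in WT control and at most 1.32 CPM elsewhere. Among NK cell markers, 4 of 12 were higher in WT control, *Xcl1* included, and 5 of 10 were lower after αMARCO in WT. The NK receptor gene *Ncr1* was at 0.942 CPM or less in every library, and the B cell gene *Cd79a* at 0.617 CPM or less. *Klre1*, *Cd79b* and *Prf1* of the NK and B cell lists, chosen after their values were seen, were higher in both WT control libraries than in both *Unc93b1* 3d/3d control libraries. The B cell gene *Cd22* was called lower there. In that comparison, 9 of 12 NK cell markers and 2 of 4 tested B cell markers had a positive log2 fold change. *Klre1*, an NK receptor gene, was at 3.79 and 4.82 CPM in WT control, 0.502 and 0.101 CPM in *Unc93b1* 3d/3d control, and 0.825 and 0.270 CPM in WT αMARCO, and was called in both comparisons. *Cd79b*, a chain of the B cell receptor, was at 36.6 and 41.2 CPM in WT control, 2.26 and 2.89 CPM in *Unc93b1* 3d/3d control, and 17.2 and 15.5 CPM in WT αMARCO, and was also called in both. *Prf1*, which encodes perforin, was at 12.2 and 12.6 CPM in WT control, 4.33 and 0.862 CPM in *Unc93b1* 3d/3d control, and 0.388 and 2.43 CPM in WT αMARCO, and was called after αMARCO but not between the control groups (edgeR adjusted p = 0.0854). The part of these cells in the values of *Itgae*, *Xcl1* and *Cd8a* was not tested.

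Mature dendritic cell markers gave 6 of 13 higher and 1 lower in WT control than in *Unc93b1* 3d/3d control, with a median log2 fold change of 1.58, and 9 of 13 lower and 1 higher after αMARCO in WT, with a median of -2.60. The summed level was 1381 to 2012 CPM in WT control and 938 to 1007 CPM in the other 6 libraries. *Ccr7*, the receptor that guides dendritic cells to lymph nodes, was at 214 and 119 CPM in WT control and at 9.25 to 16.5 CPM elsewhere. WT control replicate 1 was higher than replicate 2 in *Ccr7*, *Fscn1* (288 and 153 CPM), *Flt3* and *Zbtb46*. In *Unc93b1* 3d/3d control, *Zbtb46* and *Flt3* were again higher in replicate 1.

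Pan-dendritic cell markers, which include *Zbtb46*, gave 1 of 8 higher in WT control and 4 of 8 lower after αMARCO in WT. Their median log2 fold changes were 1.29 and -1.45, where the members had 0.69 and -0.83. Markers of cDC2 gave 7 of 14 higher in WT control, and 3 of 14 lower and 2 higher after αMARCO in WT, while *Cd209a* was not called. The cDC2 medians were 0.70 and -0.21, so the shift between the control groups was not particular to the members. Of 9 pDC markers, 2 were higher in WT control and 3 were lower after αMARCO in WT, with *Siglech*, the defining pDC receptor, at 0.942 CPM or less. Of 12 macrophage markers, 1 (*Itgam*) was called higher and 4 lower in WT control, with a median log2 fold change of 0.03, and 4 were lower and 1 higher after αMARCO in WT. Their summed level was 16641 to 17389 CPM in WT control, 18261 to 22266 CPM in *Unc93b1* 3d/3d control, 13766 to 15105 CPM in WT αMARCO and 15844 to 26346 CPM in *Unc93b1* 3d/3d αMARCO. Of 4 B cell markers, 1 was higher and 1 lower in WT control and 1 was lower after αMARCO in WT, and of 3 tumor epithelial markers, 0 were called in control TAMs and 2 were lower after αMARCO in WT, including *Epcam*. With all libraries kept, no gene of these lists was called in the comparisons that involve *Unc93b1* 3d/3d αMARCO.

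**Figure D4:**
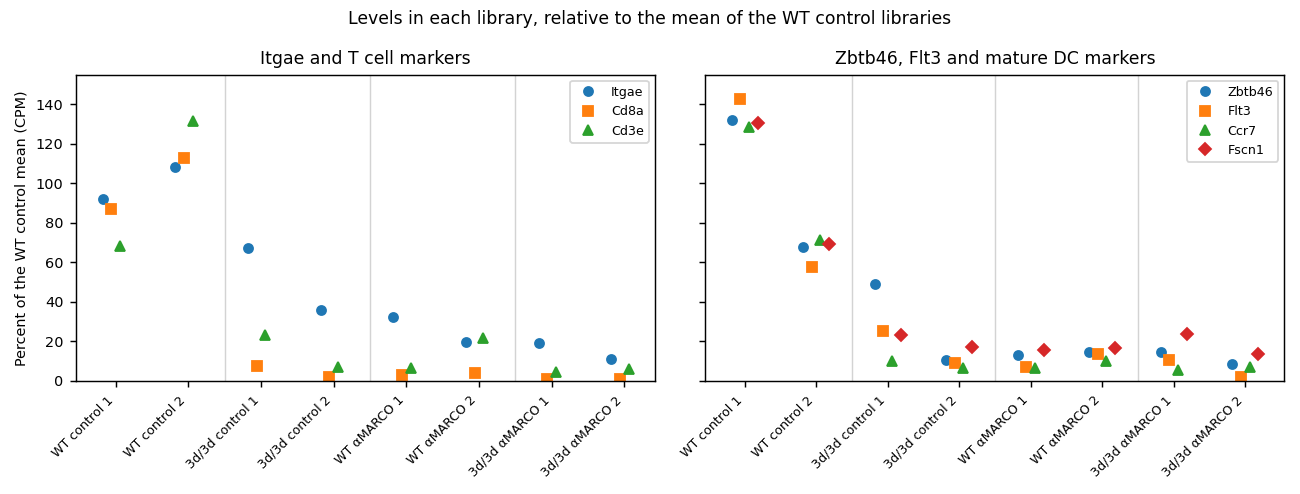
Levels in each library as a percent of the mean of the WT control libraries, for *Itgae* with T cell markers (left) and for *Zbtb46* with *Flt3* and mature dendritic cell markers (right). *Itgae* was at 67.3% and 35.9% in *Unc93b1* 3d/3d control, where *Cd8a* was at 7.33% and 1.97%, and the 4 genes on the right are all higher in WT control replicate 1 than in replicate 2.

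The genes most like *Xcr1* and *Clec9a* were found by the root mean square difference of log2 CPM, each gene centred on its mean over 8 libraries, among 16619 other genes. For *Xcr1* they were *Apool*, *Timm21*, *Btd*, *Chac1* and *Gm7027*, with differences of 0.18 to 0.19. For *Clec9a* they were *Fhl2*, *Mgst2*, *Gm14410*, *Ppic* and *Mid2*, with 0.18 to 0.23. None of these 10 genes is on the cDC1 lists, and at 16 to 42 counts per library the *Clec9a* profile carries counting error.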

How the data were processed

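Poly-A RNA of the 8 TAM libraries was sequenced on an Illumina NovaSeq instrument. Per the labels and methods, the authors used fastp for read cleaning, HISAT2 2.0.5 for alignment to GRCm38 and featureCounts 1.5.0 for counting. The raw counts were deposited by the authors in 3 tables of 2 groups each, beside normalized counts, FPKM, and the authors' own DESeq2 fold changes and p-values, which were not used. The counts were joined by gene identifier into 26939 genes, and 0 of the 95230 counts held by several tables disagreed. A gene absent from a table was given 0 counts.

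Each comparison used the 4 libraries of its 2 groups in edgeR 4.0.16 (R 4.3.3; TMM, filterByExpr, robust quasi-likelihood test, Benjamini-Hochberg adjustment over all tested genes), and the difference of αMARCO effects used all 8 libraries. A call needed an adjusted p no larger than 0.05 and a log2 fold change of 0.5 or more in size. CPM values carry TMM factors over all 8 libraries. The fits were tested on simulated data. The alternatives were DESeq2 1.42.0, its size factors, other filters, a replicate block, all 8 libraries in 1 model, other fold change thresholds and each library left out. The genes named are the 10 members, chosen genes of 12 further lists, *Unc93b1*, and the 5 genes most like *Xcr1* and *Clec9a*. The members and lists were chosen with earlier results of these data known. Nothing states that libraries of a group came from separate experiments, so p-values measure the spread between these libraries, which may be technical. Floors cover counting error. The scRNA-seq data were not analysed here.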

Additional observations from a re-analysis of the deposited data

Results flagged for a closer look

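*Xcr1* was lower in both WT αMARCO libraries than in both WT control libraries and higher in both *Unc93b1* 3d/3d αMARCO libraries than in both *Unc93b1* 3d/3d control libraries. Of 16620 genes, 790 (4.75%) lay in these 2 directions without overlap, and 1746 (10.5%) lay in opposite directions either way. The difference of the αMARCO effects for *Xcr1* was -1.54 on the log2 scale (edgeR adjusted p = 0.318). A chosen part of the listed genes was checked in the same way. Listed genes outside that part, such as *Pdia5*, *Notch2* and *Fgd6*, also lay in opposite directions without overlap. Among the checked genes, *Cdh1* had a difference of -2.95 (edgeR adjusted p = 0.318) and *Snx22* of -1.17 (adjusted p = 0.390). *Cbfa2t3* had -1.32 (adjusted p = 0.310) and *Irf4* had -1.15 (adjusted p = 0.318), and all of these lay in the directions of *Xcr1*. *Zeb2* lay the opposite way, higher with αMARCO in WT and lower in *Unc93b1* 3d/3d, with a difference of 0.62 (adjusted p = 0.339). None of these 6 differences passed the test with all 8 libraries. Without *Unc93b1* 3d/3d αMARCO replicate 2, the differences were -1.32 for *Xcr1*, -2.82 for *Cdh1* and -0.53 for *Snx22*. They were -1.26 for *Cbfa2t3*, -0.99 for *Irf4* and 0.37 for *Zeb2*. Without replicate 1 of that group, they were -1.71 for *Xcr1*, -3.06 for *Cdh1* and -1.63 for *Snx22*. The other differences were then -1.36 for *Cbfa2t3*, -1.28 for *Irf4* and 0.96 for *Zeb2*. Only sizes are given here, since 1 library was left in that group. Leaving out a library for the listed genes that are no members was chosen after seeing the data.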

How the results depend on the processing

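*Batf3*, *Cadm1* and *Xcr1* in control TAMs and the 5 genes lower after αMARCO in WT were higher or lower in the same direction under every alternative run, and the calls that were lost are given in the report. The genes called in control TAMs numbered 2025, and 364 with all 8 libraries in 1 model and 951 with a log2 fold threshold of 1. With the replicate block, *Itgae* (edgeR adjusted p = 0.019) and *Zbtb46* (adjusted p = 0.000757) were also called there. The share of all genes called there with that block is not given, so these calls are not read as particular to the members. Replicate numbers did not pair the libraries, as same-numbered libraries had correlations of deviations between -0.0768 and 0.135. Between WT and *Unc93b1* 3d/3d αMARCO TAMs, 0 genes became 214 with DESeq2 (1 member), 107 with no filter beyond 1 count, 97 with the block and 108 with all 8 libraries. For αMARCO in WT, 3236 genes became 164 with all 8 libraries (1 member), 5487 with no fold threshold and 1366 at a threshold of 1 (3 members). For αMARCO in *Unc93b1* 3d/3d, 0 genes became 60 with DESeq2, 174 with no filter (1 member, *Cadm1*), 5 with the block and 1 with all 8 libraries. For the difference of effects, 0 genes became 211 with DESeq2 and 152 with no filter. With each library left out in turn, genes called ran from 1415 to 1720 (2 to 4 members) in control TAMs, 6 to 6258 (0 to 6) between αMARCO TAMs, 1829 to 3751 (4 to 6) for αMARCO in WT, 1 to 5387 (0 to 6) for αMARCO in *Unc93b1* 3d/3d and 0 to 6415 (0 to 5) for the difference of effects. The lowest count for αMARCO in WT came without WT αMARCO replicate 1. Values near 0 that were not called changed sign. *Id2* in control TAMs was at -0.0062 with at least 10 counts in every library. *Irf8* between αMARCO TAMs was at 0.0072 with DESeq2, 0.0071 with its size factors, 0.0050 with no filter, 0.032 with at least 10 counts and 0.0043 with the block. With a library left out, log2 fold changes ran in control TAMs from -0.080 to 0.53 for *Clec9a* and -0.023 to 0.036 for *Id2*. Between αMARCO TAMs they ran from -0.14 to 0.15 for *Irf8*, -0.079 to 0.71 for *Zbtb46*, -0.69 to 0.057 for *Naaa* and -0.55 to 0.12 for *Id2*. For αMARCO in *Unc93b1* 3d/3d they ran from -2.07 to 0.11 for *Zbtb46*, -0.26 to 0.35 for *Clec9a*, -0.024 to 0.29 for *Irf8* and -0.33 to 0.35 for *Id2*. For the difference of effects they ran from -0.73 to 0.27 for *Itgae*, -0.14 to 0.70 for *Wdfy4* and -0.58 to 0.12 for *Id2*. The cause of these changes was not tested.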
